A study of Caenorhabditis elegans with 4 samples.

Results

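The regions described here are ZIM-1 peaks at the 4 autosome ends that lie opposite the pairing center, on chromosomes II, III, IV and V of Caenorhabditis elegans. A peak was a member when its midpoint lay in the last 3 Mb of II (beyond base 12279000), III (beyond 10783000) or IV (beyond 14493000), or within the first 3000000 bases of V, on WormBase release WS220. In the series-wide peak list 1244 of 9439 peaks were members: 350 on II, 400 on III, 284 on IV and 210 on V. Membership used position alone, so peak number, score, width and recurrence between replicates were free to differ between ends. The matching end of chromosome I is not in the set.

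Chromatin immunoprecipitation followed by sequencing (ChIP-seq) was carried out with a rabbit polyclonal antibody, affinity purified, that targets ZIM-1, in worms of the strain fem-2(b245), genotype fem-2(b245)III. The ZIM-1 ChIP group has 2 libraries and the input group, genomic DNA without immunoprecipitation, has 2. All 4 came from young adult hermaphrodites with a germline at 20 °C, so every library carries the fem-2 allele, and whole worms were used, so germline and somatic chromatin are mixed. Whether the replicates were separate cultures is not stated, and no input values were analysed here.

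In meiosis each C. elegans chromosome pairs with its homologue through a pairing center, a region toward 1 end that carries many copies of short motifs bound by a zinc finger protein. ZIM-1 is known for chromosomes II and III, its relatives ZIM-2 for V and ZIM-3 for I and IV, and HIM-8 for X. The pairing centers of II, III and IV lie toward the left end and that of V toward the right. The opposite ends are the other autosome arms; arms of worm chromosomes are known to be richer in repeats, heterochromatin and crossovers than the centers.

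In the series-wide list the opposite ends held fewer ZIM-1 peaks than the pairing-center ends of the same chromosomes, and somewhat more than the stretches between. They had 103.7 peaks per Mb (95% Poisson interval 97.97 to 109.6) against 176.1 (168.7 to 183.8) at the pairing-center ends, which held 2113 peaks on the same length, and 81.3 (78.6 to 84.0) in the middles, which held 3534. Such intervals reflect counting error alone, with every peak a single count; peaks cluster, so tests used the spread between windows. In a quasi-Poisson fit of windows of 200 kb over the whole nuclear genome (n = 501 windows), averaged over the 4 chromosomes on the log scale, the density was 0.58 times that of the pairing-center ends (interval 0.496 to 0.678; adjusted p = 1.3e-10) and 1.22 times that of the middles (1.06 to 1.41; adjusted p = 0.0096). With 1 spread taken for all windows, they varied 4.73 times more than a Poisson process. All 501 windows set that spread, while each ratio rests on the windows of the parts it compares. In windows of 100 kb the variance over the mean was 2.44 to 5.07 at the opposite ends and 5.11 to 11.5 at the pairing-center ends. Intervals for ratios to the pairing-center ends may therefore be too narrow. Windows of 1 chromosome are not independent worms or chromosomes, so these p-values describe variation along 1 genome. Without chromosome II the ratio to the middles was 1.11 (0.938 to 1.31), and in the replicate 2 list alone it was 1.06 (0.865 to 1.31), so it no longer passed the test. In the outermost 1 Mb alone the ratio to the pairing-center ends was 0.787 (0.596 to 1.04), which did not pass either.

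Among the 4 ends, the peak density was highest on III and lowest on V. III had 133.3 peaks per Mb (120.6 to 147.0), II 116.7 (104.8 to 129.5), IV 94.6 (84.0 to 106.3) and V 70.0 (60.9 to 80.1). In this order the counting intervals of III and II overlap, those of II and IV overlap narrowly, and those of IV and V do not. These intervals leave out the clustering of peaks, and the levels of the ends were not tested against each other. The opposite end of II had 116.7 peaks per Mb against 153.3 at the pairing-center end, a ratio of 0.76 that did not pass the test (0.562 to 1.03; adjusted p = 0.10), and 71.3 in the middle, a ratio of 1.64 that did (1.23 to 2.17; adjusted p = 0.0014; n = 501 windows). The opposite end of III had 133.3 against 222.7 at its pairing-center end, a ratio of 0.60 (0.457 to 0.784; adjusted p = 0.00057; n = 501 windows), and 104.6 in the middle, a ratio of 1.27 (0.982 to 1.65; adjusted p = 0.10). IV had 94.6 against 179.7, a ratio of 0.53 (0.385 to 0.721; adjusted p = 0.00027; n = 501 windows), and 88.6 in the middle, a ratio of 1.07 (0.802 to 1.42; adjusted p = 0.74). V had 70.0 against 148.7, a ratio of 0.47 (0.329 to 0.673; adjusted p = 0.00027; n = 501 windows), and 69.7 in the middle, a ratio of 1.00 (0.727 to 1.39; adjusted p = 0.98). The p-values are adjusted by the Benjamini-Hochberg method over these 8 ratios. Some of these calls changed with the peaks counted. The ratio of II to its middle did not pass in the replicate 2 list (1.35, adjusted p = 0.20, n = 501 windows) or among peaks found in both replicates (1.34, adjusted p = 0.21, n = 501 windows), and that of III to its middle passed in the replicate 1 list (1.47, 1.10 to 1.96). The ratio of IV to its pairing-center end did not pass by covered bases (0.703, 0.474 to 1.04) or, after adjustment, among peaks found in both replicates (0.602, adjusted p = 0.062, n = 501 windows). In the outermost 1 Mb the ratios to the pairing-center ends of III (0.721), IV (0.680) and V (0.721) did not pass. A ratio that did not pass does not show equal density. The 4 ratios to the pairing-center ends did not differ past the threshold (F test of the same fit, added after the values were seen, adjusted p = 0.21, n = 501 windows).

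**Figure D1:**
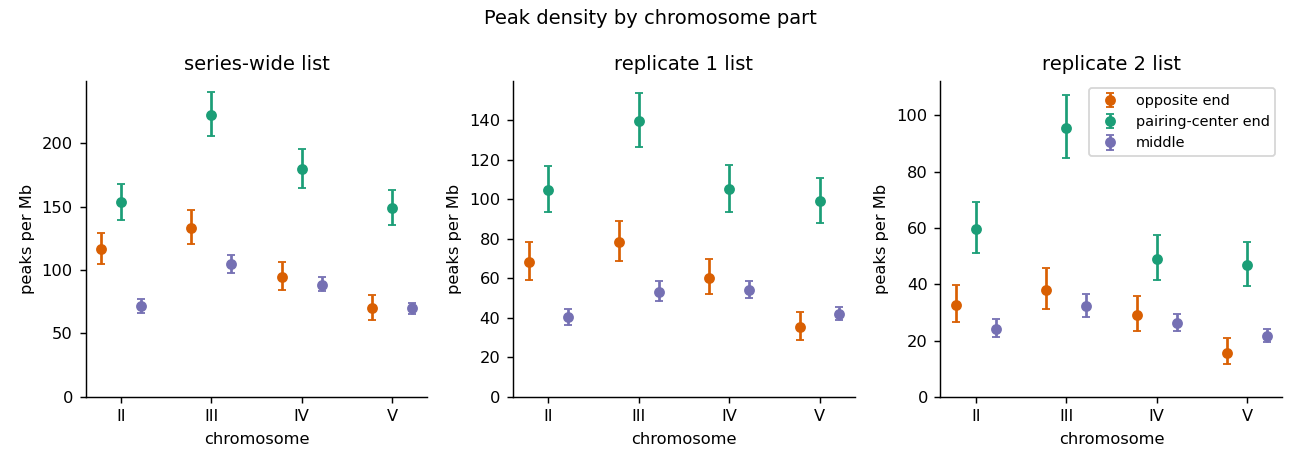
Peaks per Mb (y axis) at the opposite end, the pairing-center end and the middle of chromosomes II, III, IV and V (x axis) in the series-wide list and each replicate list; points are densities and bars 95% Poisson intervals for counting error. In each of the 3 lists the opposite end lies below the pairing-center end on all 4 chromosomes, and V has the lowest opposite end.

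The replicate lists, called separately, placed the opposite ends in the same order. Replicate 1 had 727 of its 5552 peaks there: 78.3 peaks per Mb on III, 68.3 on II, 60.3 on IV and 35.3 on V. At its pairing-center ends the values were 139.7 on III, 104.7 on II, 105.0 on IV and 98.99 on V. Replicate 2 had 346 peaks there, with 38.0 per Mb on III, 32.7 on II, 28.99 on IV and 15.7 on V, against 95.7, 59.7, 49.0 and 46.7 at the pairing-center ends of the same chromosomes. The ratio of opposite to pairing-center ends on II, which did not pass in the series-wide list, was 0.653 in replicate 1 (adjusted p = 0.011) and 0.547 in replicate 2 (adjusted p = 0.0094; each n = 501 windows), and passed in both.

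The series-wide list held most replicate peaks of these ends. It met 692 of the 727 replicate 1 peaks, or 95.2% (exact Clopper-Pearson interval 93.4 to 96.6), and 338 of the 346 replicate 2 peaks, or 97.7% (95.5 to 99.0). The 35 replicate 1 peaks it lacked scored between 50.5 and 101.3, and the 8 replicate 2 peaks between 52.98 and 143.83; the lowest scores of the lists were 50 and 50.01. In the other direction, each member was set against the highest-scoring peak that it met in a replicate list. For 719 members these were 668 different replicate 1 peaks, and for 322 members 314 different replicate 2 peaks. Some replicate peaks thus overlapped several members. The reverse also occurred, as the widest member of III met 5 replicate 2 peaks.

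Fewer members recurred than peaks at the pairing-center ends. Found in both replicates (an overlap of at least 1 bp with a peak of each) were 278 of 1244 members, or 22.3% (20.1 to 24.8), where 25.9% of all nuclear series-wide peaks were. The replicate peaks were not required to overlap each other, so a wide member could meet them at different places. The share was 31.1% (29.1 to 33.1) at the pairing-center ends and 26.3% (24.8 to 27.7) in the middles. In a quasi-binomial fit (n = 501 windows) the odds were 0.643 times those of the pairing-center ends (0.525 to 0.787; adjusted p = 4.2e-05) and 0.773 times those of the middles (0.639 to 0.935; adjusted p = 0.0096). A further 441 members were in replicate 1 alone (35.5%; all nuclear peaks 33.2%) and 44 in replicate 2 alone (3.54%; all nuclear peaks 5.32%). In neither list were 481, or 38.7% (35.95 to 41.4), where 35.6% of all nuclear peaks were.

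By chromosome, V had the lowest recurrence. Its opposite end had 36 of 210 members in both replicates, 17.1% (12.3 to 22.9), against 26.7% (22.6 to 31.0) at its pairing-center end. On III the share was 88 of 400 members, 22% (18.0 to 26.4) against 37.9% (34.2 to 41.7), and on II 23.7% (19.4 to 28.5) against 36.3% (31.9 to 40.9). IV was the exception, with 71 of 284 members, 25% (20.1 to 30.5), at the opposite end against 21.9% (18.5 to 25.6) at the pairing-center end. In the fit, the odds ratios were 0.569 on V (0.347 to 0.931), 0.463 on III (0.330 to 0.648), 0.545 on II (0.377 to 0.789) and 1.19 on IV (0.797 to 1.77), and they differed between the chromosomes (F test of the same fit, added after the values were seen, adjusted p = 0.011, n = 501 windows). The odds ratios to the middles did not differ past the threshold (same F test, adjusted p = 0.21, n = 501 windows). Those were 0.584 on V (0.370 to 0.922), 0.752 on III, 0.761 on II and 1.07 on IV (0.744 to 1.53). Seen from the replicate lists, 283 of 727 replicate 1 peaks of the opposite ends, 38.9% (35.4 to 42.6), were found in replicate 2, where 43.9% of all nuclear replicate 1 peaks were. Of the replicate 2 peaks there, 298 of 346 were found in replicate 1, 86.1% (82.0 to 89.6), near the 84.2% of all its nuclear peaks. For replicate 2 peaks the odds ratio to the pairing-center ends was 0.981 (0.611 to 1.57), which did not pass the test.

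**Figure D2:**
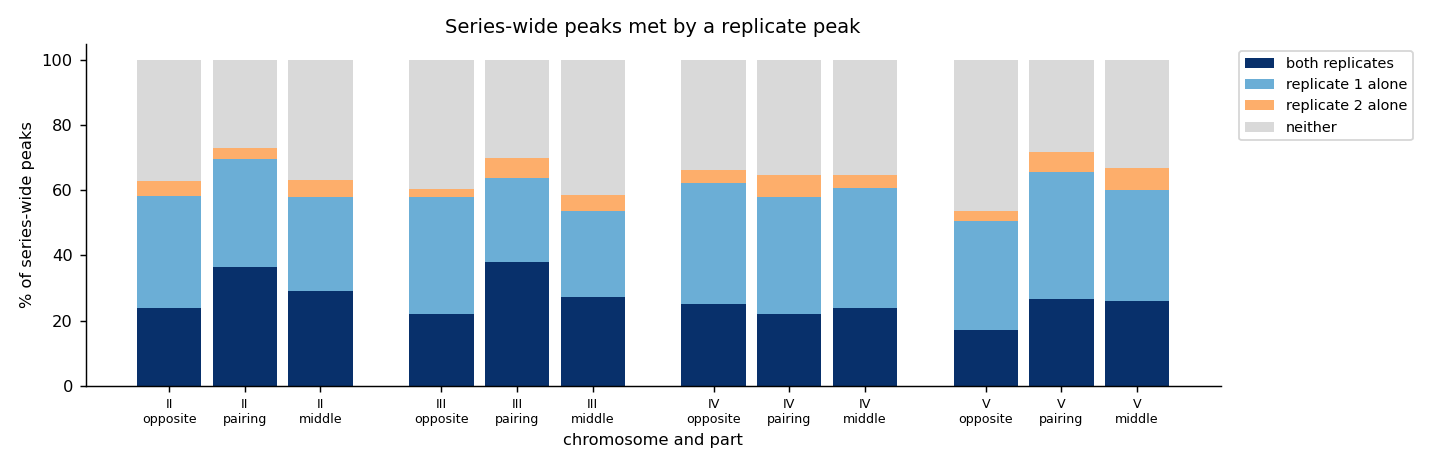
Share of series-wide peaks (y axis, %) that met a peak of both replicates, of replicate 1 alone, of replicate 2 alone or of neither, for each chromosome and part (x axis). The dark part, both replicates, is smaller at the opposite end than at the pairing-center end on II, III and V; on IV it is 25% against 21.9%.

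The score is the authors' value for each peak, of a quantity the headers do not name, so it was compared within a list. Members scored from 1.3 to 174.44, the highest value of the list, with a median of 7.37 (interquartile range 4.54 to 15.3). The median was 10.06 at the pairing-center ends and 7.62 in the middles. The geometric mean was 0.746 times that of the pairing-center ends (0.683 to 0.815; adjusted p = 6.9e-10 in a weighted linear fit, n = 501 windows) and 0.957 times that of the middles (0.881 to 1.04; adjusted p = 0.29). In the replicate lists the first ratio was 0.93 in replicate 1 (0.828 to 1.04) and 1.04 in replicate 2 (0.871 to 1.24), neither of which passed the test.

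Scores at the opposite ends had similar medians, while the share of high scores ran from 4.29% of members on V to 12.3% on IV. Medians were 7.565 on II, 7.37 on III, 7.525 on IV and 6.495 on V, against 11.31, 13.05, 7.02 and 9.84 at the pairing-center ends of the same chromosomes. The ratio of geometric means was 0.55 on III (0.472 to 0.641), 0.674 on II (0.568 to 0.801), 0.728 on V (0.594 to 0.892) and 1.15 on IV (0.960 to 1.37), and these differed between the chromosomes (F test of the same fit, adjusted p = 2.3e-07, n = 501 windows). The ratios to the middles did not differ past the threshold (same F test, adjusted p = 0.21, n = 501 windows). Those were 0.899 on III, 1.02 on II, 0.843 on V and 1.09 on IV (0.925 to 1.28). Of the members, 102 were in the highest-scoring 10% of the list (a score of 54.75 or more, 8.20%, interval 6.73 to 9.87; 10.1% of all nuclear peaks with ties). All 102 were found in both replicates. The same share for all nuclear peaks in that 10% is not given here, so it cannot be called particular to these ends. IV held 35 of the 102, 12.3% of its members (8.74 to 16.7) against 6.68% (4.72 to 9.13) at its pairing-center end. II held 33 (9.43%, against 19.8%), III 25 (6.25%, against 19.9%) and V 9 (4.29%, against 8.97%).

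**Figure D3:**
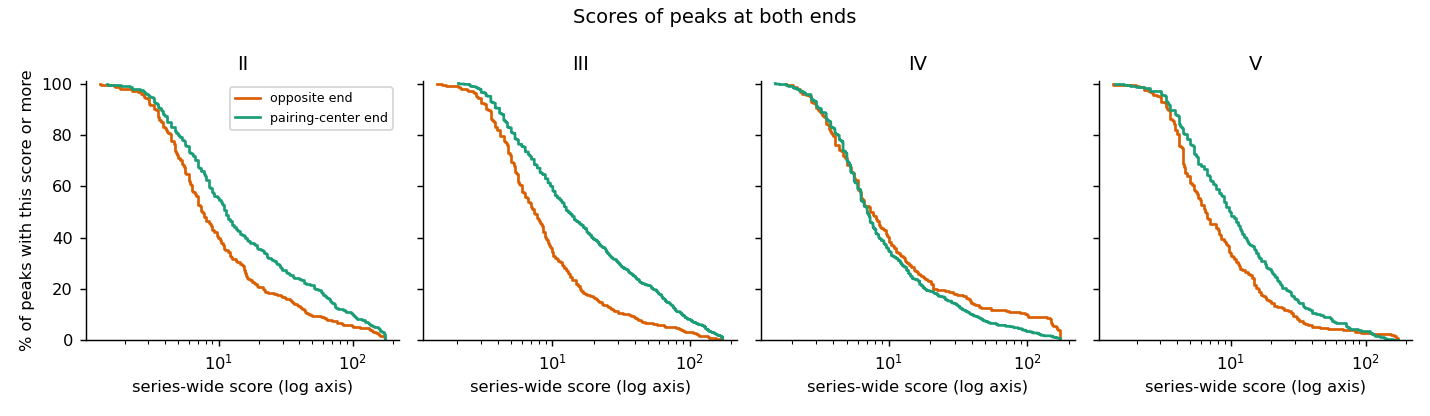
Share of peaks (y axis, %) with at least the series-wide score on the x axis (log axis), for the opposite end and the pairing-center end of each chromosome. The opposite-end curve lies below the other over most of its range on II, III and V, whereas on IV the curves run together at low scores and the opposite end is higher at high scores, with 12.3% of its peaks in the top 10% of the list against 6.68%.

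Recurrence followed score. The nuclear list was split at scores of 4.7, 7.86 and 17.49 into 4 parts of about equal size. Under 4.7 there were 326 members, of which 2 were found in both replicates. At the pairing-center ends 7 of 391 such peaks were, and in the middles 10 of 883. Of the 330 members from there up to 7.86, 2 were, against 10 of 477 and 19 of 949. Between 7.86 and 17.49 it was 54 of 327 (16.5%, 12.7 to 21.0). The pairing-center ends had 53 of 530 there (10%) and the middles 173 of 884 (19.6%). Above that it was 220 of 261 (84.3%, 79.3 to 88.5). This compares with 82.1% (79.1 to 84.8) of the 715 such peaks at the pairing-center ends and 88.8% (86.4 to 90.8) in the middles. That top part held 21.0% of the members and 33.8% of the pairing-center peaks. Members found in both replicates had a median score of 38.9 and a median width of 647 bp, those in replicate 1 alone 7.17 and 328 bp, those in replicate 2 alone 13.3 and 317.5 bp, and those in neither 4.7 and 203 bp. The score was part of what the caller reported for the same reads, so this is a description with no test.

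At members found in both replicates, the replicate scores ranked alike: Spearman's rho across these peaks was 0.84 on IV (71 peaks), 0.81 on II (83), 0.74 on III (88) and 0.66 on V (36). The points share 2 libraries. Many peaks are tied at a score of 3100, though the lists reach 3223.52 and 3230.05. Of the 278 members, 35 had a score of 3100 or more in both lists. That is 12.6% (8.93 to 17.1), where 8.06% of all nuclear peaks found in both replicates did, 8.52% (6.50 to 10.9) at the pairing-center ends and 6.90% (5.35 to 8.72) in the middles; no test was made. IV held 19 of these 35, II 9, III 4 and V 3.

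**Figure D4:**
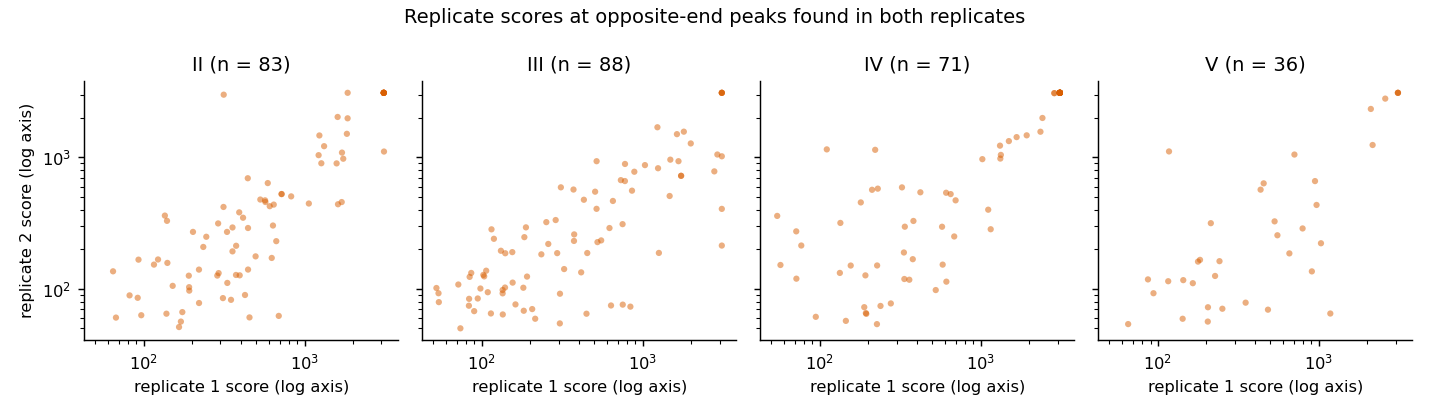
Score of the highest-scoring overlapping replicate 1 peak (x axis, log) against that of replicate 2 (y axis, log) for the members found in both replicates, 1 point per member and 1 panel per end. The points at the upper right are peaks at the tied score of 3100, 19 of them on IV, where both lists were at or above it.

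The members tied at the highest score lay on IV, II and V. The highest score of the series-wide list was shared by 78 peaks, of which 12 were members, 0.965% of the members (0.499 to 1.68) beside 0.827% of all nuclear peaks. IV had 7, II 3, V 2 and III 0. All 12 were found in both replicates, a share that is not given here for all 78. The 12 were 1179 to 3694 bp wide and met peaks with a score of 3100 in both lists. However, 1 of them, on II, met that of replicate 2 over only 22 bp. Replicate 1 had 19 peaks at 3100 or more on the opposite end of IV, 10.5% of its peaks there (6.44 to 15.9), and replicate 2 had 20, or 23.0% (14.6 to 33.3); over all nuclear peaks the shares were 4.25% and 7.9%. On the opposite end of III they were 2.98% (1.21 to 6.04) and 3.51% (0.964 to 8.74).

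On IV the highest-scoring members were the peaks at IV:15373505-15377198, 3694 bp wide and 2118 kb from the outermost base, at IV:15765496-15767472, 1977 bp wide, and at IV:15319687-15321227, 1541 bp wide. The replicate peaks at the first of these spanned 3687 bp in replicate 1 and 3452 bp in replicate 2. The 7 tied members of IV were spread from 583 to 2669 kb from the outermost base. The widest member of IV, at IV:15076224-15083098, spanned 6875 bp with a score of 152.56; replicate 1 had 2 peaks that shared 6741 bp with it and replicate 2 had 2 that shared 5604 bp, the highest at 3100 in each.

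On II the 3 tied members lay together in the outer 0.5 Mb, at II:15141071-15143372, II:14877658-14879690 and II:14990913-14992596, between 137 and 401 kb from the outermost base. They were 2302, 2033 and 1684 bp wide. At the first, a replicate 1 peak of 5907 bp shared 2299 bp with the member. Replicate 2 had 2 peaks that shared 1938 bp with it together, of which the higher-scoring, at 3100, shared only 22 bp. The widest member of II, at II:14247780-14252002, had 4223 bp and a score of 134.65; the highest of 2 replicate 1 peaks there scored 3110.65 and the highest of 3 replicate 2 peaks 1108.38.

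On V the 2 tied members were neighbours, at V:1255895-1258501 (2607 bp) and V:1253703-1255714 (2012 bp), and each replicate list also had a peak at 3100 for each. The next, at V:1403411-1404835, scored 169.04 and met peaks of 3100 in both lists. The widest member of V, at V:724047-727559, was 3513 bp wide with a series-wide score of 28.93. The replicate peaks there were 3424 and 3600 bp wide. Their scores were 2104.09 and 2336.66, which cannot be set against the series-wide score.

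III had the most members of the 4 ends and none tied at the highest score of the list. In the highest-scoring 10% it had 25 members, fewer than IV (35) and II (33) and more than V (9). The highest scores on III were 171.83 at III:11159949-11161320, 158.99 at III:11110580-11111016 and 156.53 at III:13643394-13643867. The first met peaks of 3100 in both lists; the second met 1631.5 in replicate 1 and 1502.83 in replicate 2, and the third 1234.22 and 1695.59. The widest member of all 4 ends was on III, at III:13584176-13592171, with 7996 bp and a score of 27.16. Replicate 1 had 2 peaks that shared 7926 bp with this site, the highest at 3100, whereas replicate 2 had 5 that shared 3288 bp, the highest at 406.03.

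The median member was 298.5 bp wide (interquartile range 201.8 to 488.5) against 284 bp at the pairing-center ends and 296 bp in the middles. At least 1 kb wide were 125 members, 10.05%, where 8.7% of all nuclear peaks were; 38 were on IV, 37 on II, 32 on III and 18 on V, and 83 of the 125, or 66.4% (57.4 to 74.6), were found in both replicates, where 71.1% of all nuclear peaks of that width were. Members covered 597 kb, 4.97% of the 4 ends: 6.31% on III, 5.63% on II, 4.89% on IV and 3.06% on V. The pairing-center ends were covered to 8.41% and the middles to 3.87%.

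Along the opposite ends, window counts spanned a narrower range than along the pairing-center ends. Counted in 30 windows of 100 kb from the outermost base, II had a median of 11 peaks (3 to 26), III 13 (1 to 24), IV 7.5 (2 to 26) and V 4 (1 to 20). The pairing-center ends reached 52 on II, 56 on III, 39 on IV and 56 on V. The variance over the mean of these windows was 3.24 on II, 2.44 on III, 3.17 on IV and 5.07 on V, against 8.07, 8.12, 5.11 and 11.5 at the pairing-center ends; no test was made. The median gap between neighbouring members was 2.39 kb on III, 2.53 kb on V, 3.24 kb on II and 3.93 kb on IV, and 33.6% of gaps were under 1 kb, against 43.2% at the pairing-center ends.

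**Figure D5:**
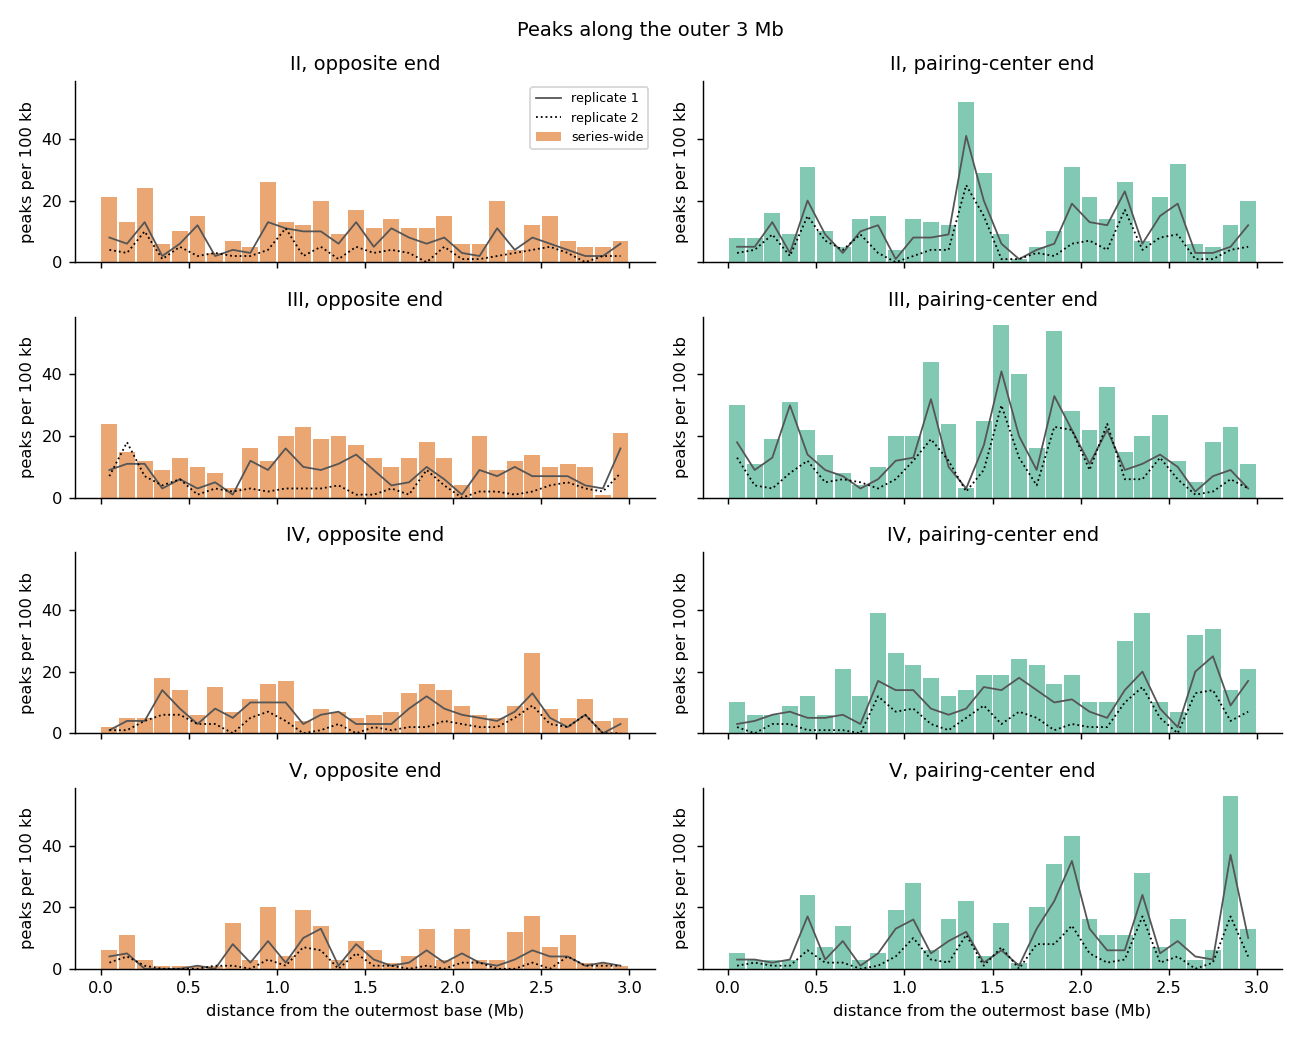
Peak midpoints per 100 kb (y axis) by distance from the outermost base of the chromosome in the lists (x axis, Mb), at the opposite ends on the left and the pairing-center ends on the right; bars are the series-wide list, lines the replicate lists. No opposite-end window holds more than 26 peaks, whereas each pairing-center end has windows with 39 or more.

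On fixed 100 kb windows of the chromosome, the densest were 12.6 to 12.7 Mb of III and 15.0 to 15.1 Mb of IV, with 26 members each, 14.3 to 14.4 Mb of II with 25 and 0.9 to 1.0 Mb of V with 20. Of these peaks 6 on III (23.1%), 7 on IV (26.9%), 4 on II (16%) and 1 on V (5%) were found in both replicates, where 22.3% of all members were, and replicate 2 had 6, 9, 4 and 3 peaks in the same windows. The longest stretch with no member was 173.7 kb on V (V:2712743-2886423), then 100.5 kb on IV (IV:17391803-17492256), 68.8 kb on II (II:12945023-13013817) and 68.2 kb on III (III:11662613-11730860). No replicate peak lay wholly within any of these 4.

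The outer 1.5 Mb of the ends held more peaks than the inner 1.5 Mb on II, with 201 against 149, III, with 221 against 179, and V, with 111 against 99, while IV had 140 against 144. Replicate 1 had more in the outer part on all 4, with 119 against 86 on II, 130 against 105 on III, 96 against 85 on IV and 63 against 43 on V. Replicate 2 had 60 against 38 on II, 67 against 47 on III, 44 against 43 on IV and 31 against 16 on V. At the pairing-center ends of III, IV and V the order was the other way in all 3 lists, for example 285 in the outer and 383 in the inner part on III in the series-wide list. These counts were not tested.

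The outermost 0.5 Mb of III stood out between the replicates: replicate 2, with far fewer peaks in total, had 42 there and replicate 1 had 40, and 27 of the 73 series-wide peaks were found in both. Elsewhere on that end replicate 1 had 195 peaks and replicate 2 had 72. The outermost 0.5 Mb of V held 22 members, the fewest of any 0.5 Mb part of the 4 ends.

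At the very tips, the first member of V began at base 1, scored 34.15 and met peaks of 705.34 in replicate 1 and 1051.57 in replicate 2. The last members of II, III and IV, at 358, 495 and 612 bp, scored 16.09, 20.19 and 22.61 and were found in neither replicate, and each was the highest-scoring such member of its end. On V the highest-scoring member found in neither replicate was at V:773311-773519, with 14.42.

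Around the limits of the ends, the member just inside scored 5.01 on II, 2.1 on III, 7.37 on IV and 31.1 on V. The nearest peak outside scored 19.29 on II, 7.86 on III, 174.44 on IV and 8.11 on V. The outside peak on IV lay 14.5 kb beyond the limit and was one of the tied peaks, 5494 bp wide.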

How the data were processed

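Per the labels' protocols, ground frozen worms were fixed in 1% formaldehyde for 10 min and chromatin was sonicated. The submitters' processing notes name BWA and the build ce10; the deposited lists name WormBase WS220 in their headers and MACS (replicates) or MACS v2 (series-wide) in their source column. Each deposited score is the authors' value per peak; pooling, control and settings are not given in the sources used here. The replicate lists hold 5552 and 2887 peaks with scores from 50; 223 and 222 are tied at 3100. Read depth is unknown, and lists alone cannot show weak signal.

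Chromosome ends were taken as the last base in any list. Peaks were counted per 200 kb window. Quasi-Poisson, quasi-binomial or weighted linear fits (statsmodels 0.14.6, Python 3.11.15) had 1 term per chromosome and part (left 3 Mb, middle, right 3 Mb) over 6 chromosomes. They were tested on simulated data with independent windows and the same spread in every part. That test could not show errors from linked windows or from unequal spread. p-values were adjusted by the Benjamini-Hochberg method over 6 group contrasts or 8 single-end contrasts; the F tests were adjusted over their own 6. Sites named were, per end, the 3 highest-scoring found in both replicates (ties by width), the highest-scoring found in neither, the widest, the outermost and innermost, the densest 100 kb window and the longest empty stretch. Members and tests were chosen with earlier results of these data known. Alternatives changed window, end size, list, overlap, score threshold, counted quantity and chromosomes. Genes and sequence were not analysed, since no genome of this build was used here.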

Additional observations from a re-analysis of the deposited data

Results flagged for a closer look

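The contrast between the opposite end and the pairing-center end differed between chromosomes in 2 measures, by tests added after the values were seen. For the score the F test across the 4 chromosomes gave an adjusted p = 2.3e-07 (n = 501 windows): the ratio of geometric means was 0.55 on III, 0.674 on II, 0.728 on V and 1.15 on IV. For the share found in both replicates it gave an adjusted p = 0.011 (n = 501 windows), with odds ratios of 0.463 on III, 0.545 on II, 0.569 on V and 1.19 on IV. In both measures IV alone had a ratio above 1, with intervals that include 1 (0.960 to 1.37 for the score and 0.797 to 1.77 for the share). The same F tests on the ratios to the middles did not pass (adjusted p = 0.21 for each measure, n = 501 windows). Against its own middle, IV had a ratio of 1.09 for the score (0.925 to 1.28) and 1.07 for the share (0.744 to 1.53). The difference between chromosomes was thus seen only against the pairing-center ends.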

How the results depend on the processing

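No paired analysis was possible because the input libraries, which share replicate numbers with the ChIP libraries, have no values here. Each of 14 ratios was recomputed under other choices of processing; of 146 values, 106 stayed on their side of 1 and of the threshold, and 13 changed direction. The cause of these changes was not tested. Using each replicate list alone, the density ratio to the pairing-center ends ran from 0.456 to 0.523 (II 0.547 to 0.653, past the threshold in both; III 0.397 to 0.561; IV 0.574 to 0.592; V 0.336 to 0.357), that to the middles from 1.06 to 1.23 (II 1.35 to 1.69, past the threshold in replicate 1 alone; III 1.18 to 1.47, past it in replicate 1 alone; IV 1.107 to 1.11; V 0.724 to 0.841, below 1 in both), the score ratio to the pairing-center ends from 0.93 to 1.04 and that to the middles from 1.03 to 1.10, above 1 in both. In the outermost 1 Mb these no longer passed: density against the pairing-center ends (0.787; III 0.721, IV 0.680, V 0.721) and the middles (1.21), share (0.858 and 0.797) and score (0.898); II reversed to 1.08 and V against its middle to 0.890. In the outermost 2 Mb, III against its middle passed at 1.38 and V against its middle was 0.997. In the higher-scoring 50% of the list, II against its pairing-center end passed at 0.564, the group against the middles missed at 1.19, the share against the pairing-center ends missed at 0.830 and V against its middle was 0.897. Among peaks found in both replicates, II against its pairing-center end passed at 0.497; II against its middle (1.34), IV against its pairing-center end (0.602), the group against the middles (1.00) and the score against the pairing-center ends (0.921) missed; V against its middle was 0.658 and the score against the middles 1.09. By covered bases IV against its pairing-center end was 0.703, past no threshold, and V against its middle 0.871. Without chromosome II the density ratio to the middles missed at 1.11, and without V the share against the middles missed at 0.849. For replicate 2 peaks found in replicate 1, the odds ratio was 0.981 against the pairing-center ends and 1.12 against the middles. Ratios under windows of 100 or 500 kb and an overlap of 50% of both peaks kept their side of the threshold. Read depth is unknown, so no limit of detection can be given.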

Other observations

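Chromosomes I and X were not in the set and give values for comparison. The left end of I, which lies opposite its pairing center, had 136.0 peaks per Mb (123.1 to 149.9; 408 peaks) against 120.3 (108.2 to 133.4; 361 peaks) at the right end and 101.96 in the middle. Replicate 1 had 241 peaks at the left end and 201 at the right, and replicate 2 had 102 and 108. Found in both replicates were 22.1% (18.1 to 26.4) of the left-end peaks and 22.2% (18.0 to 26.8) of the right-end peaks. On X the right end, opposite the pairing center, had 53.3 peaks per Mb (45.4 to 62.2) against 86.0 (75.8 to 97.2) at the left end and 36.95 in the middle. These differences were not tested.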
